A study of Saccharomyces cerevisiae with 18 samples.

Results

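The RNA of 43 nuclear genes for proteins of the mitochondrial ribosome was followed in *Saccharomyces cerevisiae* colonies and liquid cultures. The genes were found by their symbol on the array platform, *MRPL* or *MRPS* followed by a digit, out of 5425 *S. cerevisiae* genes with a probe set. The symbol names the subunit, so that 34 genes belong to the large subunit (*MRPL*) and 9 to the small subunit (*MRPS*). Each gene had 1 probe set, and none of these probe sets was shared with another gene. By what is known of these proteins, 21 of the large subunit proteins and 8 of the small subunit proteins have a counterpart in the bacterial ribosome, and 13 and 1 do not. The genes are spread over 12 chromosomes, and *MRPL4* and *MRPL15* lie on chromosome XII.

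Mitochondria keep a small genome that encodes core subunits of the respiratory chain and of ATP synthase, and they translate it on a ribosome of their own. The RNA of this ribosome is made inside the organelle, but nearly all of its proteins are encoded in the nucleus, made in the cytosol and imported. In yeast the amount of these transcripts is known to follow the carbon source and the growth state, and many of them are bound by Puf3, an RNA-binding protein that controls the messages of mitochondrial proteins. Cells without a working mitochondrial ribosome cannot respire and grow only by fermentation.

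Total RNA was measured with 18 Affymetrix arrays of the Yeast Genome 2.0 design, 3 for each of 6 groups. All strains are of the Sigma1278b background. The strains KV63 and KV473 are labelled as *FLO11* deletion mutants, and KV68 and KV2668 are labelled wild type. Colonies of all 4 strains were grown on solid YPS medium at 30°C for 5 days (12 arrays), and KV473 and KV2668 were also grown in liquid medium (6 arrays), for which the labels repeat the protocol of the colonies. *FLO11* encodes a cell-surface adhesin, and its log2 value lay between 12.76 and 13.31 on the 9 arrays labelled flo11 and between 4.65 and 5.43 on the 9 labelled wild type, the opposite of the labels. Groups are therefore named by strain, and each difference is a strain labelled wild type minus a strain labelled flo11, or solid minus liquid, unless other strains are named. No source used here says whether the arrays of a group came from separate cultures, so that the p-values measure only the spread between these arrays. A culture and a colony are bulk samples, in which fewer cells of a kind and less RNA per cell cannot be told apart.

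The values are the authors' log2 expression values, used as deposited. All 43 genes lay above background on all 18 arrays, where background is the 95th percentile of the *Schizosaccharomyces pombe* probe sets of the same array, between 4.34 and 4.56. The lowest member, *MRPL15* on KV68 solid replicate 3, was still 4.45 above it. Differences were tested with limma over the 5424 *S. cerevisiae* probe sets above background. Both thresholds had to be passed for a call, an adjusted p below 0.05 and a log2 difference above 1 or below −1, which is a change of more than 2-fold, and genes that passed the adjusted p alone were counted separately.

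KV68 solid replicate 3 stood apart from the other arrays. The correlation between replicates over all probe sets was at least 0.993, and 0.909 and 0.917 where this array was one of them. The 7 a-specific mating genes, which haploid cells of mating type a express, had a mean log2 value of 9.22 on this array, against 6.64 and 6.52 on replicates 1 and 2. The 5 alpha-specific genes had 9.05, against 12.52 and 12.61. The strains also differed in these genes. The a-specific mean was 9.52 to 10.39 on the 6 KV2668 arrays and 6.11 to 7.94 on the 9 KV473 and KV63 arrays, and the alpha-specific mean was 6.80 to 7.86 in KV2668 and 11.52 to 12.46 in KV473 and KV63. All listed mating genes were above background on at least 3 arrays.

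The mitochondrial ribosomal protein RNAs moved as a block across the groups, with the highest values in liquid KV473 cultures. Each gene was expressed as its log2 value minus its own mean over the 18 arrays, and the median over the 43 genes was taken on each array. These medians were 0.75, 0.73 and 0.77 on the KV473 liquid arrays, and −0.19, −0.48 and −0.42 on the KV2668 liquid arrays. Both groups came from liquid medium, and they held the highest and the lowest group mean of the series. Colonies of KV473 gave 0.05, 0.01 and 0.15 and colonies of KV63 gave 0.04, 0.08 and 0.08, so that these groups overlapped. Colonies of KV2668 gave −0.05, −0.20 and −0.14. Colonies of KV68 gave −0.21 and −0.18 on replicates 1 and 2 and −0.62 on replicate 3, the lowest array of all. As means of 3 arrays with their SD, the order was KV473 liquid (0.75 ± 0.02), KV473 solid (0.07 ± 0.07), KV63 solid (0.07 ± 0.02), KV2668 solid (−0.13 ± 0.08), KV68 solid (−0.34 ± 0.24) and KV2668 liquid (−0.36 ± 0.15). The last 2 groups did not differ beyond their spread.

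**Figure D1:**
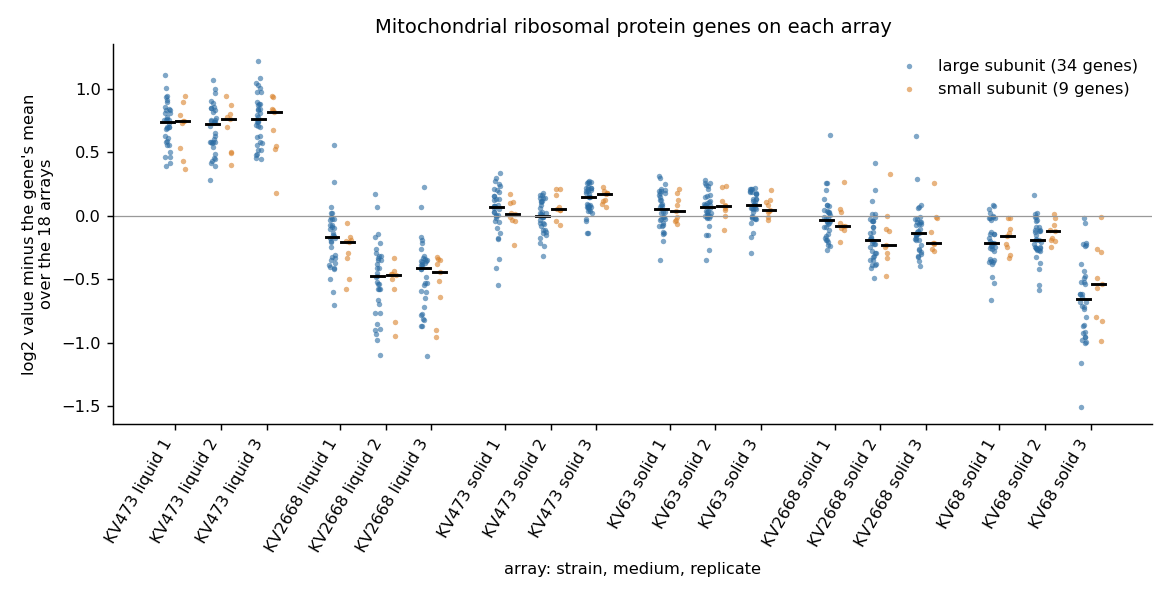
Log2 value of each of the 43 genes minus its mean over the 18 arrays (vertical axis) on each array (horizontal axis), with large subunit genes in blue, small subunit genes in orange and a black bar at the median of each subunit. On the 3 KV473 liquid arrays all 43 genes lie above their mean, on KV68 solid replicate 3 all lie below it, and the medians of both subunits sit close together on every array.

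The pattern was shared by most single genes. The KV473 liquid group had the highest mean for 42 of the 43 genes. The exception was *MRPL4*, on chromosome XII, with 10.58, 10.35 and 10.56 in KV2668 colonies and 10.44, 10.39 and 10.55 in KV473 liquid cultures, which overlap. The lowest group was KV2668 liquid for 26 genes and KV68 solid for 17. Across the 18 arrays, which share groups and normalization, a gene correlated with the mean of the other 42 at a median Pearson's r of 0.94, and 31 of 43 reached 0.90. The lowest correlations were those of *MRPL4* (0.44), *MRPL15* (0.61) and *MRPL33* (0.70), all of the large subunit, and the highest was that of *MRPL9* (0.99), the counterpart of bacterial L3. *MRPL9* had log2 values of 11.68, 11.59 and 11.76 in KV473 liquid cultures and 10.83, 10.57 and 10.61 in KV2668 liquid cultures. On solid medium it had 11.01, 10.99 and 11.0016 in KV473, 11.01, 11.0004 and 10.97 in KV63, 10.97, 10.78 and 10.87 in KV2668 and 10.85, 10.79 and 10.37 in KV68. In the small subunit the closest gene was *MRPS18* (0.98), the counterpart of S11, which had 11.32, 11.38 and 11.24 in KV473 liquid cultures and 10.24, 10.12 and 10.06 in KV2668 liquid cultures. Both genes show the order of the group means with KV2668 colonies just below those of KV473 and KV63.

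The medians of the large and the small subunit genes lay close together. On each array, the median deviation of the large subunit genes minus the median deviation of the small subunit genes was taken. This gap lay between −0.12 and 0.08 on the 18 arrays and was above 0 on 8 of them. As a mean over the arrays of a group it was 0.05 ± 0.02 in KV2668 colonies, 0.02 ± 0.03 in KV2668 liquid cultures, 0.02 ± 0.03 in KV63 colonies, −0.01 ± 0.06 in KV473 colonies, −0.04 ± 0.03 in KV473 liquid cultures and −0.08 ± 0.03 in KV68 colonies (SD, n = 3 each). These gaps were small against the distance of more than 1 log2 unit between the highest and the lowest group.

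The largest difference was that between the strains in liquid medium. All 43 genes were lower in KV2668 than in KV473 cultures, with non-overlapping arrays for each gene, where 30% of all tested probe sets were lower without overlap. Of the 43, 32 passed both thresholds (25 of the large and 7 of the small subunit), beside 3.78% of all tested probe sets called lower. All 43 passed the adjusted p alone, beside 24.3% of all probe sets. The median difference was −1.17, a 2.25-fold lower level, against 0.02 over all tested probe sets. It was −1.18 for the large and −1.13 for the small subunit, and −1.17 and −1.19 for large subunit proteins with and without a bacterial counterpart. Leaving out 1 array at a time gave 28 to 34 called genes.

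*MRPS8*, the counterpart of bacterial S8, which binds the small-subunit rRNA early in assembly, showed the largest difference. Its log2 values were 11.34, 11.27 and 11.34 in KV473 and 9.90, 9.56 and 9.49 in KV2668, a difference of −1.67 (SE 0.10, adjusted p = 1.01e-08, limma). *MRPL19*, the counterpart of L11 at the site where translation factors bind, had 11.10, 11.08 and 11.06 in KV473 and 9.74, 9.41 and 9.47 in KV2668 (difference −1.54, SE 0.08, adjusted p = 2.72e-09, limma). For both genes, replicate 1 was the highest of the KV2668 cultures and still lay more than 1 log2 unit below the lowest KV473 culture. *MRPL44* (−1.52) and *MRPL20* (−1.41), large subunit proteins particular to mitochondria, followed *MRPL19* in the large subunit. In the small subunit *MRPS17* (−1.35), the counterpart of S17, and *MRPS35* (−1.18), without a bacterial counterpart, followed *MRPS8*.

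The 2 genes on chromosome XII had the smallest differences in liquid medium. *MRPL15* had 11.06, 11.30 and 11.11 in KV473 and 10.86, 10.47 and 10.53 in KV2668 (−0.53, SE 0.10, adjusted p = 0.00054, limma), and *MRPL4* had 10.44, 10.39 and 10.55 against 10.20, 10.01 and 10.00 (−0.39, SE 0.10, adjusted p = 0.00565, limma). Over all 462 tested probe sets of chromosome XII the median difference between these cultures was 0.87, against 0.02 over all chromosomes. The remaining 41 genes had a median of −1.18 and held all 32 calls. The strain and the level of chromosome XII, as well as the mating-gene values above, cannot be told apart, since all KV2668 arrays share them.

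On solid medium the difference between KV2668 and KV473 was much smaller. No gene passed both thresholds, beside 4.35% of all tested probe sets called higher and 1.79% called lower. By the adjusted p alone, 22 genes were lower and 3 higher, beside 30.2% and 29.9% of all probe sets. The median was −0.23 (large −0.21, small −0.24, all probe sets −0.01). The lower genes were led by *MRPL44*, with 11.13, 11.06 and 11.15 in KV473 colonies and 10.72, 10.63 and 10.57 in KV2668 colonies (−0.48, SE 0.10, adjusted p = 0.00127, limma), and in the small subunit by *MRPS12* (−0.39), *MRPS9* (−0.28) and *MRPS5* (−0.28). The higher genes were *MRPL4*, *MRPL15* and *MRPL3*. *MRPL4* rose from 9.39, 9.72 and 9.80 to 10.58, 10.35 and 10.56 (0.86, SE 0.10, adjusted p = 9.76e-06, limma). *MRPL15* had 9.89, 9.99 and 10.17 in KV473 and 10.56, 10.51 and 10.59 in KV2668 (0.54, SE 0.10, adjusted p = 0.000507, limma). The median difference over all tested probe sets of chromosome XII, where both lie, was 0.81. With each chromosome centred on its own median, *MRPL4* was at −0.01, *MRPL15* at −0.34 and 11 genes were lower. *MRPL3*, on chromosome XIII, was higher by 0.23 (adjusted p = 0.0284, limma). Without KV2668 solid replicate 2 or without KV473 solid replicate 3, 12 genes were lower by the adjusted p.

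**Figure D2:**
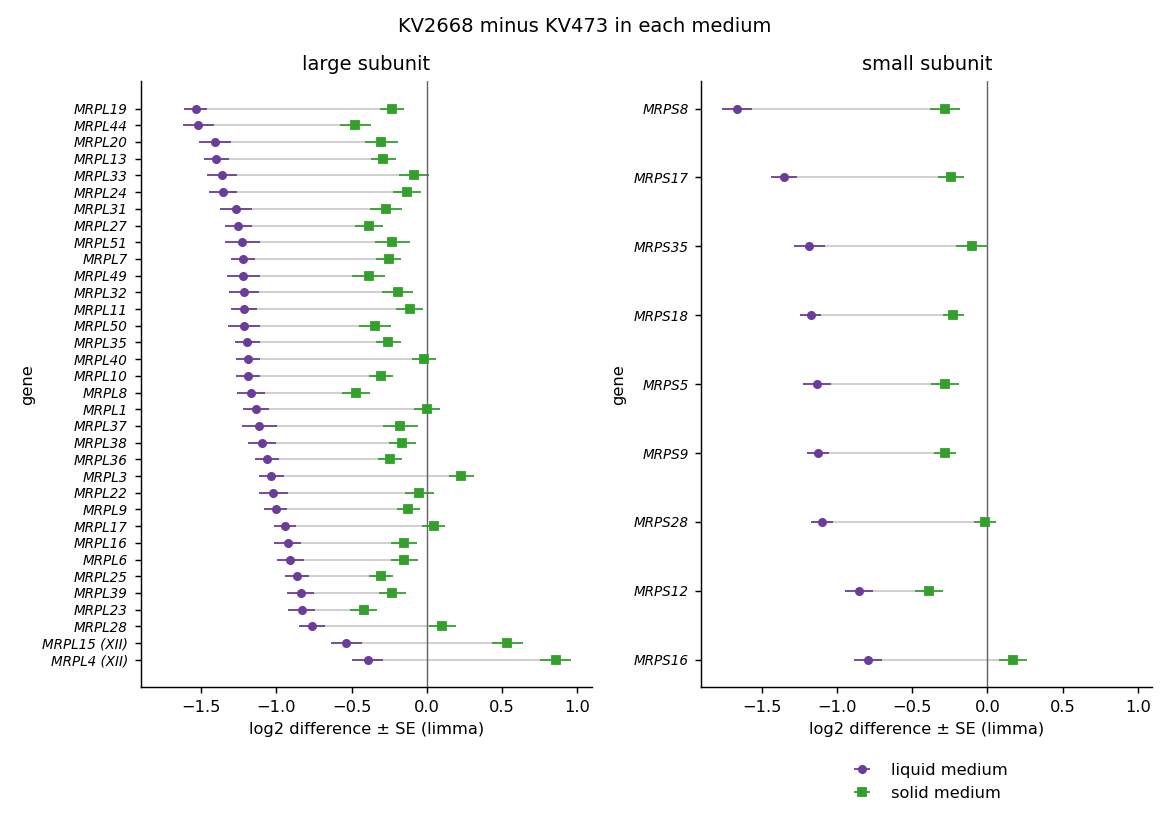
Log2 difference KV2668 minus KV473 with its standard error from limma (horizontal axis) for each large subunit gene (left) and small subunit gene (right), in liquid medium (purple circles) and on solid medium (green squares). All 43 liquid differences are below 0, from −1.67 to −0.39, while the solid differences lie between −0.48 and 0.86, with the chromosome XII genes *MRPL4* and *MRPL15* at the upper end.

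Colonies and liquid cultures of the same strain were compared next. In KV473, all 43 genes had lower values on solid than in liquid medium. Both thresholds were passed by 5 genes, all of the large subunit, beside 6.67% of all tested probe sets called lower, and 41 passed the adjusted p alone, beside 49.2%. The arrays did not overlap for 41 genes, beside 50.1% of all probe sets. The median was −0.67, a 1.59-fold lower level in colonies, against −0.16 over all probe sets, with −0.66 for the large and −0.71 for the small subunit.

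The 5 called genes were *MRPL7* (−1.20), *MRPL15* (−1.14), *MRPL3* (−1.06), *MRPL32* (−1.04) and *MRPL40* (−1.01). *MRPL7*, the counterpart of L5, had 11.57, 11.53 and 11.68 in liquid and 10.28, 10.35 and 10.53 in colonies (SE 0.08, adjusted p = 1.16e-08, limma). *MRPL3* and *MRPL15* encode mitochondria-specific proteins with a fold like that of RNase III. *MRPL3* had 11.23, 11.16 and 11.16 in liquid and 9.99, 10.09 and 10.29 in colonies (SE 0.08, adjusted p = 4.53e-08, limma). *MRPL32*, whose precursor is cut by the m-AAA protease of the inner membrane, and *MRPL40*, the counterpart of L24, also had arrays that did not overlap. *MRPL32* had 11.69, 11.59 and 11.77 in liquid and 10.75, 10.51 and 10.66 in colonies, and *MRPL40* had 11.16, 11.29 and 11.37 against 10.14, 10.26 and 10.37. In the small subunit *MRPS35* (−0.86), *MRPS9* (−0.83) and *MRPS28* (−0.79) had the largest differences. *MRPL33* and *MRPS16* did not pass the adjusted p. *MRPL33*, the counterpart of L30, had 11.997, 11.82 and 11.98 in liquid and 11.88, 11.70 and 11.76 in colonies, which overlap. Without KV473 solid replicate 1, 3 of the 43 genes were called.

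KV2668 moved the other way. On solid medium 27 genes were higher than in liquid by the adjusted p, beside 34.4% of all tested probe sets, and 1 was lower, beside 45.9%. A single gene passed both thresholds, beside 10.7% of all probe sets called higher. The arrays did not overlap for 19 genes that were higher and 1 that was lower, beside 34.9% and 47.3% of all probe sets. The median was 0.28 in both subunits, a 1.22-fold higher level in colonies, against −0.10 over all probe sets.

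*MRPL33* was the called gene, with 10.83, 10.44 and 10.44 in liquid and 11.80, 11.66 and 11.62 in colonies (1.12, SE 0.10, adjusted p = 1.77e-07, limma). It was thus low in KV2668 liquid cultures alone, and at 11.31 or more in the other groups. *MRPL19* (0.75) and *MRPL51* (0.73) followed in the large subunit, and *MRPS17* (0.76), *MRPS16* (0.76) and *MRPS8* (0.62) in the small. *MRPS16*, the counterpart of S16, had 11.23, 11.02 and 10.89 in liquid and 11.79, 11.85 and 11.78 in colonies (SE 0.09, adjusted p = 3.93e-06, limma). *MRPL4* was higher by 0.43 (adjusted p = 0.00173, limma), and *MRPL15* differed by −0.07 (adjusted p = 0.538, limma). The gene that was lower was *MRPL7* (−0.23, adjusted p = 0.0177, limma).

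The difference between the media thus took opposite directions in KV473 and KV2668, and the strain by medium difference (KV2668 minus KV473) was tested as an interaction. It was above 0 for all 43 genes, and all 43 passed the adjusted p, beside 24.8% of all tested probe sets. Both thresholds were passed by 17 genes (13 large, 4 small), beside 4.22% called in this direction. The median was 0.97 (large 0.97, small 0.96) against −0.02 over all probe sets. In the small subunit the largest values were those of *MRPS8* (1.39, SE 0.14, adjusted p = 4.99e-06, limma), *MRPS17* (1.11) and *MRPS28* (1.08). In the large subunit they were those of *MRPL19* (1.30), *MRPL33* (1.28) and *MRPL3* (1.26). *MRPL4* (1.25) and *MRPL15* (1.07), on chromosome XII, did not stand apart in this contrast, and the median over all probe sets of chromosome XII was −0.02. Without KV2668 liquid replicate 1, the highest of its group, 26 genes were called, and without KV2668 liquid replicate 2 the count was 14. This contrast and the comparisons in liquid medium rest on the same 6 liquid arrays and are not independent.

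**Figure D3:**
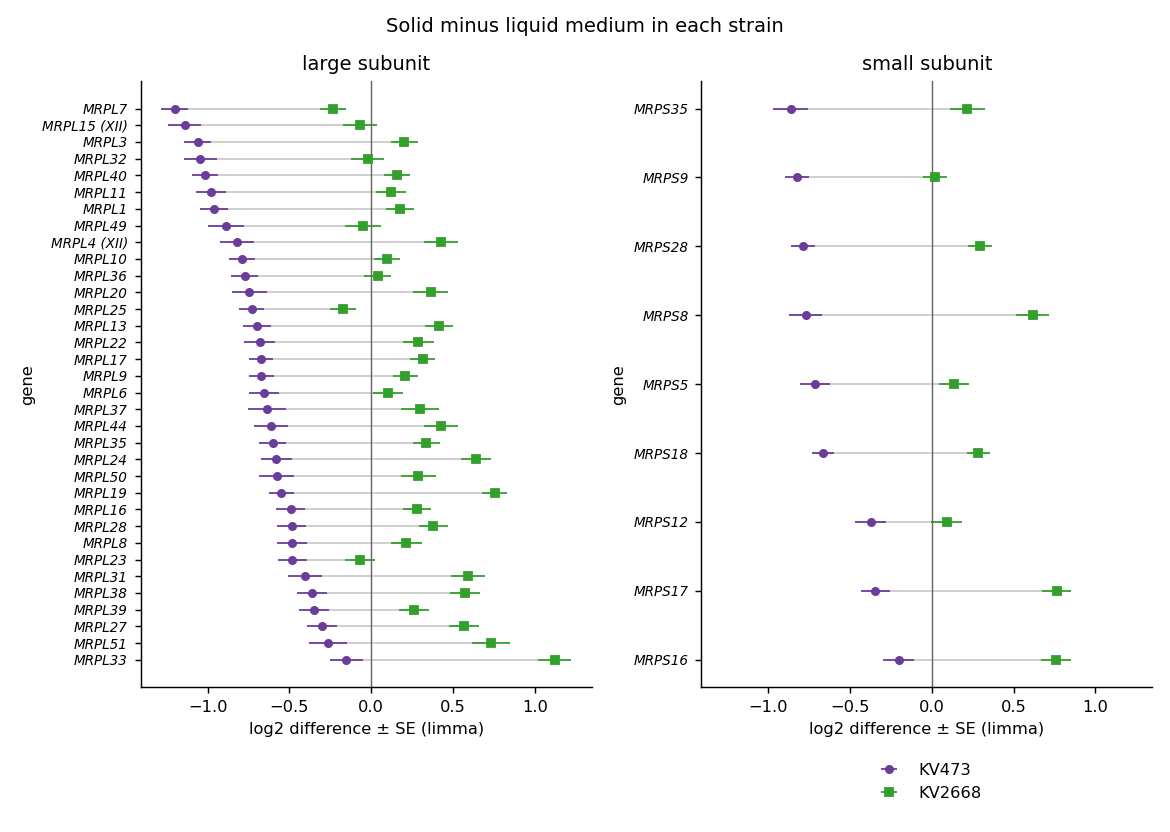
Log2 difference solid minus liquid with its standard error from limma (horizontal axis) for each large subunit gene (left) and small subunit gene (right) in KV473 (purple circles) and KV2668 (green squares). For every gene the KV2668 value lies to the right of the KV473 value, with medians of 0.28 and −0.67.

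Colonies of KV68 and KV63 gave a second pair of strains with opposite *FLO11* values, and here chromosome XII did not differ (median −0.0032). All 43 genes had lower values in KV68, with a median of −0.38, against 0.02 over all tested probe sets. No gene passed both thresholds, beside 0.221% of all probe sets called lower. By the adjusted p alone, 15 were lower (13 large, 2 small), beside 4.98% of all probe sets. Arrays did not overlap for 39 genes, beside 11.9% of all probe sets. The medians of the subunits were −0.41 (large) and −0.34 (small).

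*MRPL50*, the counterpart of L9, had 11.01, 10.95 and 11.07 in KV63 and 10.60, 10.61 and 10.00 in KV68 (−0.61, SE 0.15, adjusted p = 0.0189, limma). *MRPL49*, the counterpart of L21, had 11.02, 10.94 and 10.87 in KV63 and 10.64, 10.56 and 9.86 in KV68 (−0.59, adjusted p = 0.0373, limma). In both genes replicate 3 was the lowest KV68 array, and replicates 1 and 2 also lay below every KV63 array. *MRPS28* (−0.44, adjusted p = 0.0477, limma) and *MRPS9* (−0.41, adjusted p = 0.0368, limma) were the small subunit genes that passed. *MRPL15* (−0.62, adjusted p = 0.0506), *MRPL4* (−0.34, adjusted p = 0.0501) and *MRPS8* (−0.52, adjusted p = 0.0933) did not pass with limma. *MRPL4* had 9.59, 9.59 and 9.77 in KV63 and 9.27, 9.39 and 9.26 in KV68, so that here replicate 3 did not stand apart.

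The count of genes that passed in this pair depended on single arrays. The median SD of a gene over 3 arrays was 0.29 in KV68 colonies and 0.06 to 0.17 in the other groups. Without KV68 replicate 3, 13 genes passed and the median was −0.24. Without KV63 replicate 1, 2 or 3 the counts were 2, 4 and 2, and without KV68 replicate 1 or 2 they were 28 and 31. Since all groups share 1 estimate of the spread, leaving out KV2668 solid replicate 3, KV473 liquid replicate 1 or KV2668 liquid replicate 3 also lowered the count, to 8, 9 and 9. With array weights, which count variable arrays less, 34 genes were lower. With the 6 arrays of this pair alone the count was 0. The share of all tested probe sets that passed (4.98% lower) was taken only in the fit of all 18 arrays with equal weights. The other counts have no such share beside them and are not read as a result about these genes.

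KV68 solid replicate 3, taken on its own, had lower mitochondrial ribosomal protein RNA than either other array of its group. It has no replicate, so the values are given without a test. Of the 43 genes, 40 lay below the mean of replicates 1 and 2, by a median of −0.50 (large −0.52, small −0.35), whereas replicates 1 and 2 differed from each other by a median of −0.02 and by 0.22 at most. The largest distances were those of *MRPL17* (10.14, 10.23 and 9.20 on replicates 1 to 3, −0.99), *MRPS8* (10.38, 10.33 and 9.41, −0.94) and *MRPL15* (9.77, 9.72 and 8.80, −0.94). The 3 genes above that mean were *MRPL10* (0.25), *MRPL28* (0.24) and *MRPL36* (0.13), and *MRPS17* was at −0.01. Large subunit proteins without a bacterial counterpart had a median of −0.61 and those with one −0.46. Over all tested probe sets the median was 0.05, and 2483 of 5424 lay below the mean of replicates 1 and 2. Of all probe sets, 322 were higher and 260 lower by more than 1, and 0 of the 43 genes were. Cytosolic ribosomal protein genes (0.02) and nuclear respiratory chain genes (−0.05) stayed near 0 on this array, while the other mitochondrial ribosomal proteins of the large (−0.54) and small subunit (−0.51) were lower. The part that the mixed mating-gene values of this array have in these differences was not tested. Set against the mean of the KV63 colonies, the 43 genes had medians of −0.26, −0.23 and −0.69 on KV68 replicates 1 to 3. On these arrays 43, 42 and 43 of them lay below 0, beside 53.0%, 47.8% and 46.2% of all tested probe sets.

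**Figure D4:**
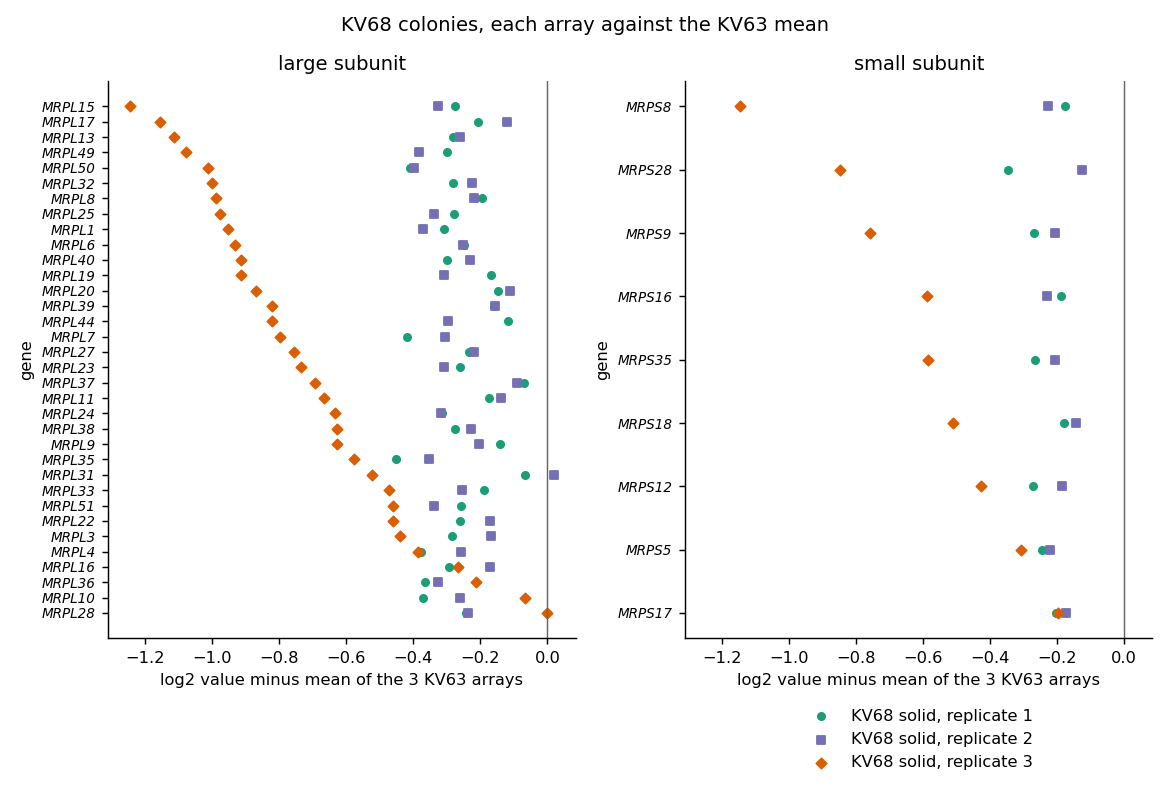
Log2 value on each KV68 colony array minus the mean of the 3 KV63 colony arrays (horizontal axis) for each large subunit gene (left) and small subunit gene (right), with replicates 1, 2 and 3 as circles, squares and diamonds. Replicates 1 and 2 lie close together with medians of −0.26 and −0.23, and replicate 3 extends to below −1.2 for *MRPL15* with a median of −0.69.

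The remaining colony comparisons were between strains of the same label. KV63 and KV473 colonies, both labelled flo11, gave no gene at an adjusted p under 0.05 with limma and none at an unadjusted p under 0.05 among the 43, and over all tested probe sets 0% passed and 80 had an unadjusted p under 0.05. The median was 0.0035, and the differences lay between −0.10 and 0.11. The fit took its spread from all 18 arrays, KV68 solid replicate 3 among them. Small differences between KV63 and KV473 could therefore be missed. KV68 and KV2668 colonies, both labelled wild type, were compared as KV68 minus KV2668. *MRPL4* (−1.19) and *MRPL15* (−1.12) passed both thresholds, beside 3.71% of all probe sets called lower, and 11 genes were lower by the adjusted p, beside 21.4%. The median was −0.21, and that of chromosome XII was −0.80. Without KV68 replicate 3, *MRPL4* (−1.16) stayed past both thresholds and *MRPL15* (−0.81) passed the adjusted p only, 2 genes were higher and 8 lower by the adjusted p, and the median was −0.06. Without KV2668 solid replicate 1 or 3, 6 genes were lower.

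The strain differences of both colony pairs were also compared with each other, a test added after the data had been seen. The difference KV68 minus KV63 less the difference KV2668 minus KV473 passed both thresholds for *MRPL4* (−1.20) and *MRPL15* (−1.15), beside 3.58% of all probe sets called lower, and the adjusted p alone also for *MRPL3* (−0.53) and *MRPS16* (−0.51), beside 14.5%. With each chromosome centred, 0 of the 43 genes passed both thresholds and 4 were lower by the adjusted p, but neither *MRPL4* (−0.33, adjusted p = 0.149, limma) nor *MRPL15* (−0.28, adjusted p = 0.498, limma). The median was −0.22, and −0.06 without KV68 replicate 3, where 1 gene was called. Without KV68 replicate 2, 8 genes were lower by the adjusted p.

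Proteins of the mitochondrial ribosome that carry other names had values close to those of the 43. In liquid medium, KV2668 minus KV473, the 10 measured further large subunit genes had a median of −1.08, with 7 called and all 10 lower by the adjusted p, and the 23 measured further small subunit genes had −1.15, with 16 called and all 23 lower. *MNP1* (−1.54), the counterpart of L7/L12, *IMG2* (−1.36), *MRP21* (−1.46) and *RSM27* (−1.43) led them. Over all tested probe sets, 3.78% were called lower in this comparison and 24.3% were lower by the adjusted p. From liquid to solid medium these lists had medians of −0.53 and −0.65 in KV473 and 0.31 and 0.25 in KV2668. The small subunit protein Var1 is encoded in the mitochondrial genome, and it and the other 8 names listed for mitochondrially encoded proteins have no probe set in the table, so that the products of this ribosome were not analysed here.

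Other genes of mitochondrial gene expression were also lower in KV2668 liquid cultures, by different amounts. By the adjusted p, 24.3% of all tested probe sets were lower in this comparison and 1552 of 5424 were higher. Of 8 translation factors, 7 were lower in KV2668 by the adjusted p (median −0.997), led by *IFM1* (−1.61), the initiation factor, and *MRF1* (−1.54), the release factor. Of 13 mitochondrial tRNA synthetases, 12 were lower and 1 higher (median −0.96), with *MSY1* (−1.53) and *MST1* (−1.17) the furthest. Of 9 genes of rRNA modification and ribosome assembly, 7 were lower (median −0.65), among them *MAM33* (−1.72) and the RNA helicase gene *MSS116* (−1.0045). Of 15 translational activators, which act on single mitochondrial messages, 11 were lower (median −0.49), with *CBP3* (−1.58) and *CBP6* (−1.52), which act together on cytochrome *b*. The mitochondrial RNA polymerase gene *RPO41* (−0.35) and its partner *MTF1* (−1.20) were also lower. These lists hold genes of chromosome XII, among them *MEF1*, *MSS51*, *PET309* and *NAM2*. That chromosome had a median of 0.87 in this comparison, and the lists were not split by chromosome. The synthetases differed from the ribosomal proteins in the medium comparison. Their median was −0.997 in KV473, with all 13 lower, and −0.15 in KV2668, with 2 higher and 5 lower by the adjusted p. Over all tested probe sets, 49.2% were lower on solid medium in KV473, and 34.4% were higher and 45.9% lower in KV2668. The difference between the lists was not tested.

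Nuclear respiratory chain and ATP synthase genes and cytosolic ribosomal protein genes had other patterns. In liquid medium 33 of 38 respiratory chain genes were lower in KV2668 and 2 higher (median −0.48, led by *NDI1* with −1.91 and *SDH1* with −1.71). Of 128 cytosolic ribosomal protein genes, 6 were lower and 13 higher (median −0.02). These counts by the adjusted p stand beside 24.3% of all tested probe sets lower and 1552 of 5424 higher. From liquid to solid medium the cytosolic genes had medians of −0.61 in KV473 (126 of 128 lower) and −0.54 in KV2668 (122 lower). Here both strains moved the same way, beside 49.2% and 45.9% of all probe sets lower by the adjusted p. The interaction of the cytosolic genes had a median of 0.08 with 8 genes higher, beside 24.8% of all probe sets. The respiratory chain genes had medians of −0.07 in KV473 and 0.33 in KV2668, with 21 and 9 of the 38 below 0, beside 3214 and 3035 of 5424 probe sets. The medians do not describe the 2 genes furthest from 0, which were much higher on solid medium in both strains. *CYC7* had 5.28 in KV473 and 4.73 in KV2668, and *COX5B* had 4.69 and 3.97.

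**Figure D5:**
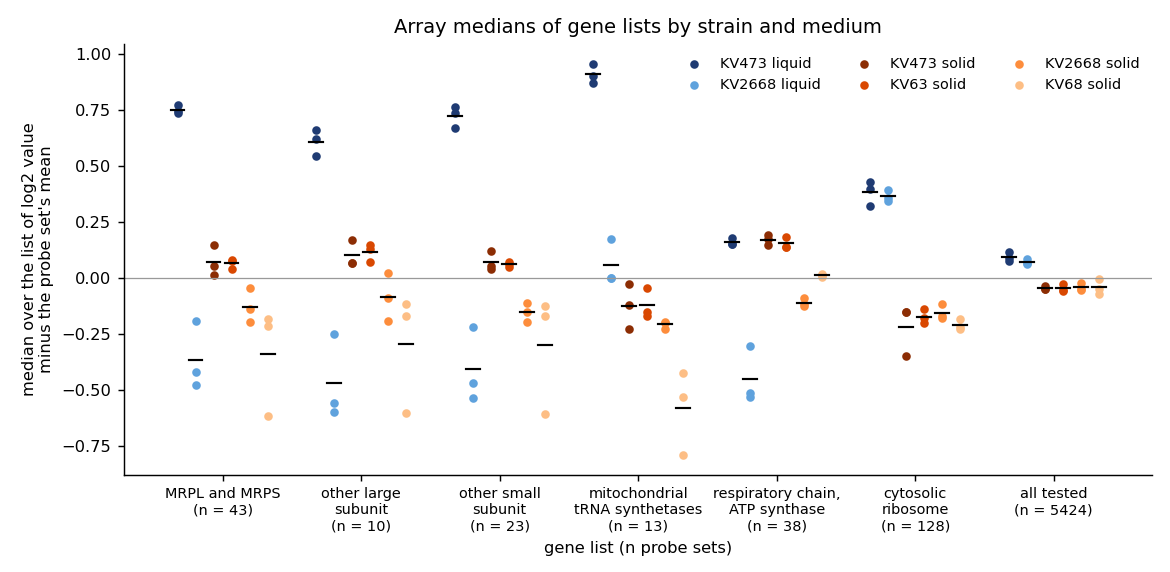
Median over a gene list of the log2 value minus the mean of each probe set over the 18 arrays (vertical axis) for the 3 arrays of each group (dots, with the group mean as a bar), by list (horizontal axis, with the number of probe sets). In all 3 lists of mitochondrial ribosomal proteins KV473 liquid is the highest group and KV2668 liquid has the lowest mean, whereas the cytosolic ribosome is high in both liquid groups.

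Among regulators of mitochondrial genes, the Hap complex and Puf3 were examined. *HAP4*, the activating subunit of the Hap complex, was higher on solid medium in both strains (0.61 in KV473, adjusted p = 0.00015, and 1.09 in KV2668, adjusted p = 5.86e-07, limma), and did not pass between the strains in liquid medium (−0.19, adjusted p = 0.176, limma). *HAP5* was lower in KV2668 than in KV473 liquid cultures (−1.01, adjusted p = 1.31e-06, limma), and from liquid to solid medium it had −0.50 in KV473 and 0.61 in KV2668. *HAP3* had −0.73 between the strains in liquid medium, and −0.73 in KV473 and −0.19 in KV2668 between the media. *HAP2* had −0.34 between the strains in liquid medium, and 0.17 in KV473 and 0.67 in KV2668 between the media. *PUF3* RNA was higher on solid medium in KV2668 (0.98, adjusted p = 1.34e-06, limma) and not past the threshold in KV473 (−0.06, adjusted p = 0.619, limma). In liquid medium *PUF3* did not pass between the strains (0.04, adjusted p = 0.77, limma). In colonies it was higher in KV2668 than in KV473 (1.08, adjusted p = 1.57e-06, limma). Its strain by medium difference was 1.04 (adjusted p = 8.78e-05, limma). Between KV68 and KV63 colonies it did not pass (0.07, adjusted p = 0.831, limma). *PUF3* lies on chromosome XII, as does *SFP1*, a regulator of ribosomal protein genes, which was higher in KV2668 liquid cultures (0.91). The median of KV2668 minus KV473 over all tested probe sets of that chromosome was 0.87 in liquid medium and 0.81 in colonies.

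The genes outside the 43 whose values followed the mean of the 43 most closely over the 18 arrays were *MAM33* (Pearson's r 0.989), *MNP1* (0.988), *MRP7* (0.981), *RSM25* (0.979) and *TOM20* (0.976). *MNP1* and *MRP7* encode large subunit proteins and *RSM25* a small subunit protein, *MAM33* a protein of the mitochondrial matrix, and *TOM20* a receptor for protein import at the outer membrane. Of the 50 most similar probe sets, all with r of 0.934 or more, 19 belong to the other mitochondrial ribosomal proteins. Of these proteins, 10 of the large and 23 of the small subunit were measured, among 5424 tested probe sets, the 43 included. Probe sets marked as shared between genes were left out of this ranking. Without KV68 solid replicate 3 the r of these 5 genes was 0.987, 0.986, 0.979, 0.976 and 0.976.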

How the data were processed

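RNA from liquid cultures and colonies was measured on 18 1-colour Affymetrix arrays. Log2 values from RMA were deposited by the authors (background correction, normalization between arrays and summary per probe set), and used with no further normalization. No source used here gives the RMA version. Array columns were matched to samples by their titles, and 0 were left unassigned. Of 7686 probe sets, 6145 carry 1 gene symbol in the platform annotation, 5469 of them of *S. cerevisiae*, and 5424 exceeded background on at least 3 arrays. Chromosomes came from a current gene table, which gave the location of all 43 genes and changed 0 of their symbols. The number of arrays limits the precision, since arrays have no read depth.

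Linear models were fitted with limma 3.58.1 (lmFit, eBayes) under R 4.3.3, with Benjamini-Hochberg adjustment over all 5424 probe sets. Comparisons of KV473 and KV2668 used their 12 arrays in 4 groups (8 residual degrees of freedom), and those with KV63 or KV68 used all 18 arrays in 6 groups (12 residual degrees of freedom). The fit was tested on simulated data. The members, lists and tests were chosen with earlier results of these data known.

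For KV473 and KV2668 and for KV68 minus KV63, the text names the 3 genes of each subunit with the largest absolute difference. For KV68 minus KV2668 and the difference between strain pairs it names the genes called, and in the latter those that passed the adjusted p. Every gene called was named where 5 or fewer were. Of the other lists, the 2 genes furthest from 0 in the liquid strain comparison are named, except for the mating and cytosolic ribosomal protein genes. The chromosome XII genes, *HAP4*, *PUF3*, and the 5 genes most similar to the mean of the 43 are also named. Other genes were chosen after their values were seen. The replicate numbers were checked as pairs. Deviations of equally numbered KV63 and KV68 colonies correlated at 0.27 to 0.52, every pair over 0.1, and for no other comparison made did every pair exceed 0.1. Alternatives were no filter on low values, arrays or chromosomes centred on their medians, the replicate block, array weights, other sets of arrays in the fit, no fold threshold, and each array left out in turn. Promoter sequences were not analysed here.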

Additional observations from a re-analysis of the deposited data

Results flagged for a closer look

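Under the same change of medium, KV473 and KV2668 differed in the mitochondrial ribosomal protein genes, by a test of the difference itself. All 43 genes had a strain by medium difference above 0 at an adjusted p under 0.05 (limma), with a median of 0.97, and 17 of the 43 also exceeded 1 on the log2 scale. These counts stand beside 24.8% and 4.22% of all tested probe sets in the same direction.

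The strain difference in colonies also differed between both pairs of strains, for 4 of the 43 genes at an adjusted p under 0.05 (limma), in a test added after the data had been seen. All 4 were lower, beside 14.5% of all tested probe sets, so that the share of these genes that passed was not above that of all probe sets. *MRPL4* had a difference of −1.20 and *MRPL15* one of −1.15 between KV68 minus KV63 and KV2668 minus KV473. *MRPL3* had −0.53 and *MRPS16* −0.51. The first 2 lie on chromosome XII, where the median of all tested probe sets in this contrast was −0.79. With each chromosome centred on its own median, 0 of the 43 genes passed both thresholds in this contrast and 4 were lower by the adjusted p, but neither *MRPL4* (−0.33, adjusted p = 0.149, limma) nor *MRPL15* (−0.28, adjusted p = 0.498, limma).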

How the results depend on the processing

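The 43 lower genes of the liquid comparison by the adjusted p were 43 under every alternative that was run, and the strain by medium differences 42 or 43. Of 822 summary values under alternatives and single left-out arrays, 769 stayed within 1.5 times the count or 1 SD of the median and 53 moved. Of 1494 values of single genes and subunit medians, 1399 counted as unchanged, 55 no longer passed, 21 newly passed, 8 moved and 11 changed sign. A single gene counted as unchanged where it kept direction and side of the adjusted p threshold. A subunit median counted as unchanged within 1 SD of its main value, whatever its sign. Part of the unchanged values were fixed in advance. Leaving out an array of a group outside a comparison cannot change the differences or medians of that comparison. Counts with no gene in either setting were also scored as unchanged. The totals therefore do not measure how far the results hold. The causes were not tested. Shares of all tested probe sets were taken only in the main fit, so that counts under the alternatives have none beside them.

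Without the fold threshold the counts were those by the adjusted p, in KV473 solid minus liquid 41 lower, in KV2668 27 higher and 1 lower, in the strain by medium difference 43, in KV2668 minus KV473 colonies 3 higher and 22 lower, in KV68 minus KV63 15 lower, in KV68 minus KV2668 11 lower, and in the difference between strain pairs 4 lower. With chromosomes centred, the KV473 solid minus liquid median was −0.62, 2 genes were lower in KV2668 solid minus liquid, and in KV2668 minus KV473 colonies 11 were lower with a median of −0.12, *MRPL15* at −0.34 and *MRPL4* at −0.014, while 0 were called in KV68 minus KV2668 and in the difference between strain pairs. With array weights, 3 were called lower in KV473 solid minus liquid, and in KV2668 2 were lower and *MRPL15* was at 0.031. With the same weights 34 were lower in KV68 minus KV63. In KV68 minus KV2668 they gave 1 called and 6 higher, a small subunit median of 0.041 and *MRPS8* at 0.15. In the difference between strain pairs they gave 1 called, 1 higher and 9 lower, a median of −0.030 and a small subunit median of 0.054. With all 18 arrays in the fit, 0 were lower in KV2668 solid minus liquid and 10 in KV2668 minus KV473 colonies. With only the arrays of the strains compared, 0 were lower in KV68 minus KV63 and 4 in KV68 minus KV2668.

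Leaving out 1 array at a time gave 3 to 6 called in KV473 solid minus liquid, 0 to 2 lower in KV2668 solid minus liquid (with *MRPL15* between −0.14 and 0.051, the latter without KV2668 liquid replicate 1), and 14 to 26 called in the strain by medium difference, with a median of 0.91 to 1.06. It gave 12 to 23 lower in KV2668 minus KV473 colonies and 2 to 31 in KV68 minus KV63. In KV68 minus KV2668 it gave 1 to 2 called, 0 to 2 higher and 6 to 14 lower. In the difference between strain pairs it gave 1 to 2 called, 3 to 8 lower and a median of −0.29 to −0.057. In KV68 minus KV2668, *MRPS8* ran from −0.40 to 0.084 and the small subunit median from −0.27 to 0.011, and in the difference between strain pairs that median ran from −0.23 to 0.050, with the highest value of each without KV68 replicate 3. The small subunit median of KV63 minus KV473 ran from −0.048 without KV473 solid replicate 1 to 0.027.

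With the replicate number as a block, the KV68 minus KV63 count was 15, as without it, and 2 genes were lower in KV2668 solid minus liquid. The block moved no other count of calls by over 1.5 times. A mean over several probe sets of a gene could not be tried, since each of the 43 genes had 1.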
